A study of Mus musculus with 7 samples.

Results

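The genes described here are 72 mouse genes of cell division that were chosen by name from a table of 9294 genes. A gene was taken when its symbol began with Kif, Cenp, Aurk, Bub, Plk, Ccna, Ccnb, Ccnd, Ccne, Cdk, Cdc2, Ncap, Smc, Spc2, Nek, Anapc or Cep. The rule uses names only, but it was chosen with earlier results of these data known. The name rule also caught 11 genes that share a prefix without being core division genes, such as Cept1, an enzyme of phospholipid synthesis. Mki67, Ndc80, Nuf2, Tpx2, Prc1, Ttk and Mad2l1, which were to be added singly, were not analysed here. The samples were 4 of paracardial fat (pCF), the fat depot beside the heart, and 3 of intra-abdominal fat (iVF). Both groups came from wild-type male C57 mice with no treatment named, and age is not given in the sources used here. Total RNA of each sample was hybridised to 1 Affymetrix array, and the deposited values are on a log2 scale. The labels name biological replicates but do not tie each one to a separate mouse, and p-values therefore measure only the spread between these samples, which may be partly technical.

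Cell division is driven by cyclins, which rise and fall through the cycle and switch on cyclin-dependent kinases, while inhibitor proteins hold those kinases back. In mitosis the Aurora and Polo-like kinases, motor kinesins, condensins and kinetochore proteins build the spindle and separate the chromosomes, and the anaphase-promoting complex then marks cyclins for destruction. Most mature adipocytes do not divide, while immature blood and immune cells, such as thymocytes, divide often.

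Many mitotic genes are known to carry a cell cycle homology region (CHR) and CCAAT boxes close to their start sites. The promoters below, each 250 bases before and 50 bases after the annotated start, belong to 5 of the 8 genes past the threshold described below and show where these letters lie. Capitals mark the CHR core, searched as TTTGAA or TTCGAA on either strand, and CCAAT on either strand. Sequences are from RefSeq, build GRCm38.p6, and run 5′ to 3′ on the strand of the gene. Kif11 lies on the plus strand at chr19:37376132-37376431, Ccnb2 on the minus strand at chr9:70421505-70421804, and Plk1 on the plus strand at chr7:122159185-122159484. Aurka lies on the minus strand at chr2:172370521-172370820 and Kif23 on the minus strand at chr9:61946750-61947049.
Kif11: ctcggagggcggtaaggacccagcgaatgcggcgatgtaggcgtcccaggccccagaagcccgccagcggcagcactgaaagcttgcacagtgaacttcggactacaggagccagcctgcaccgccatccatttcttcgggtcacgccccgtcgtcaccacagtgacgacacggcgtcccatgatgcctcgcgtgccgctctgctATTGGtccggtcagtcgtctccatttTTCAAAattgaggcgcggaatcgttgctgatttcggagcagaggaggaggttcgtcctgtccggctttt
Ccnb2: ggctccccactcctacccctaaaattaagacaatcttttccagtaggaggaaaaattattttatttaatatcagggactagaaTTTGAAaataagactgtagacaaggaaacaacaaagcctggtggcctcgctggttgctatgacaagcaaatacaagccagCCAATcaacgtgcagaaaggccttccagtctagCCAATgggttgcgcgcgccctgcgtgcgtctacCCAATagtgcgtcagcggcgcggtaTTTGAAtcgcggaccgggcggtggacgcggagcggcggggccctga
Plk1: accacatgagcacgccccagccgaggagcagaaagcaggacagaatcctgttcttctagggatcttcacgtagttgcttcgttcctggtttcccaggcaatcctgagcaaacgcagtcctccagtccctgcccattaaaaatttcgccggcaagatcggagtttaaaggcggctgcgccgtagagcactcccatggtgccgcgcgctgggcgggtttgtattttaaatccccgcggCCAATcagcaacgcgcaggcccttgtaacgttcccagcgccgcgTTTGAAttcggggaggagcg
Aurka: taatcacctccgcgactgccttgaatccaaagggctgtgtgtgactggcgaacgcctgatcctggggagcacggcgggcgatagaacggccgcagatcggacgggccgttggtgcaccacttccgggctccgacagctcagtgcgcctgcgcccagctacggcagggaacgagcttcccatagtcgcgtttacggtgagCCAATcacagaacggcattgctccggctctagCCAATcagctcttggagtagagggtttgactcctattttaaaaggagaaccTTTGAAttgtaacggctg
Kif23: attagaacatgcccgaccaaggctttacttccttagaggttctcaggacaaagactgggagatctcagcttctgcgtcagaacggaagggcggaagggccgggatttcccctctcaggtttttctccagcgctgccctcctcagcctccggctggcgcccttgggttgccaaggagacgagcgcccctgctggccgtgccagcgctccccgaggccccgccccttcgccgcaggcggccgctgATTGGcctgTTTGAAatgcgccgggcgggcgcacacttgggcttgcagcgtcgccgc

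A CHR core was found in 6316 of all 32851 mouse promoters of this length (19.2%). RefSeq promoters were matched for 65 of the 72 genes, which have 77 promoters among them, and 20 of these held the core (26.0%). The kinesins, cyclin, kinases, kinetochore genes and condensins of mitosis, joined into 1 group after their values were seen, have 20 promoters among 18 matched genes. The core stood in 15 of these 20 (75.0%) and in 5 of the 57 other promoters (8.77%). CCAAT was found in 37.4% of all promoters, in 75.0% of those of the mitotic genes and in 43.9% of the others. Both motifs together were present in 13 of the 20 mitotic promoters (65.0%), against 7.52% of all promoters. Their matches overlapped in 1 promoter, that of Cenpw. These counts only describe letters in a window.

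Markers of several cell types differed between the arrays, and they are given first because the mitotic genes ran beside some of them. Of 13 adipocyte markers, 10 were measured. All 10 had every pCF array below every iVF array, against 8.78% of all genes. At an adjusted p under 0.05 in the limma fit, 7 were lower in pCF, against 2.91% of all genes. The median level of these markers was 6.08, 6.24, 9.44 and 9.70 on pCF arrays 1 to 4. On iVF arrays 1 to 3 it was 14.83, 14.68 and 16.20. Adipoq, the adipocyte hormone adiponectin, was at 5.18 and 5.53 on pCF arrays 1 and 2. Both values lay below the median of all values on their array. How much fat those samples held was not tested. The median of 6 measured thymocyte markers out of 10 was 11.84, 11.10, 12.78 and 13.97 in pCF, against 9.98, 7.59 and 5.96 in iVF. For 5 of the 6 every pCF array lay above every iVF array, against 18.0% of all genes. At an adjusted p under 0.05, 2 of the 6 were higher, against 6.25% of all genes. Cd1d1, also on that list, ran the other way, with every pCF array below every iVF array and a difference of -3.29 (adjusted p = 0.0578). Of 9 thymic epithelium markers, 6 were measured. All 6 had every pCF array above every iVF array, and 4 were higher at an adjusted p under 0.05. Their medians were 11.31, 11.03, 11.42 and 11.93 in pCF, against 8.11, 6.39 and 5.37 in iVF. Of 8 mature T cell markers, 4 were measured. All 4 had every pCF array above every iVF array, and 3 were higher at an adjusted p under 0.05. Their medians were between 8.78 and 10.21 in pCF, against 5.32 to 7.79 in iVF. Macrophage markers, 4 of 7 measured, had none past the threshold, and their median was highest on iVF array 3, at 12.70. No cardiomyocyte marker of the 6 listed was measured. In bulk tissue, fewer cells of a type and less RNA per cell cannot be told apart. The highest value on pCF array 4 and on iVF array 3 was 19.93, against 19.81 to 19.84 on the other 5 arrays. No label names such sets of arrays, and differences over only the 5 arrays and between the pair are given for the main genes.

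Of the 72 genes, 8 were higher in pCF at an adjusted p under 0.05 (11.1%), against 6.25% of all genes tested, or 9.16% counting both directions. No gene of the 72 was lower, against 2.91% of all genes, in the limma fit with Benjamini-Hochberg adjustment, and array weights were the only alternative with lower calls, 3 of them. At an unadjusted p under 0.05, 25 of the 72 were higher, against 16.1% of all genes, and 0 were lower, against 8.31% (24.4% of all genes in both directions). Every pCF array lay above every iVF array for 29 of the 72 (40.3%), against 18.0% of all genes, and below for Cdkl2 and Nek6, against 8.78%. The median difference, pCF minus iVF, was 0.35 over the 72 genes and 0.13 over all genes. Without pCF array 4 it was 0.12 over the 72 genes and 0.13 over all genes. Over only the 5 arrays, without pCF array 4 and iVF array 3, it was 0.21 over the 72 genes and 0.06 over all genes. The 8 genes were Kif11, Ccnb2, Plk1, Cdkn3, Aurka, Kif23, Kif18a and Kifc5b. With pCF arrays 1 and 2 left out, none of the 8 passed and 1 gene passed in the whole table, while all 8 differences stayed positive, between 0.81 for Kifc5b and 6.05 for Kif11, with adjusted p between 0.0995 and 0.164. With pCF array 4 left out, 13 of the 72 passed, among them 6 of the 8. After quantile normalization the median was 0.21 over the 72 genes and 0.02 over all genes. Rescaling the arrays turned the sign of 11 of the 72 differences, all of which had been between 0.0068 and 0.26.

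**Figure D1:**
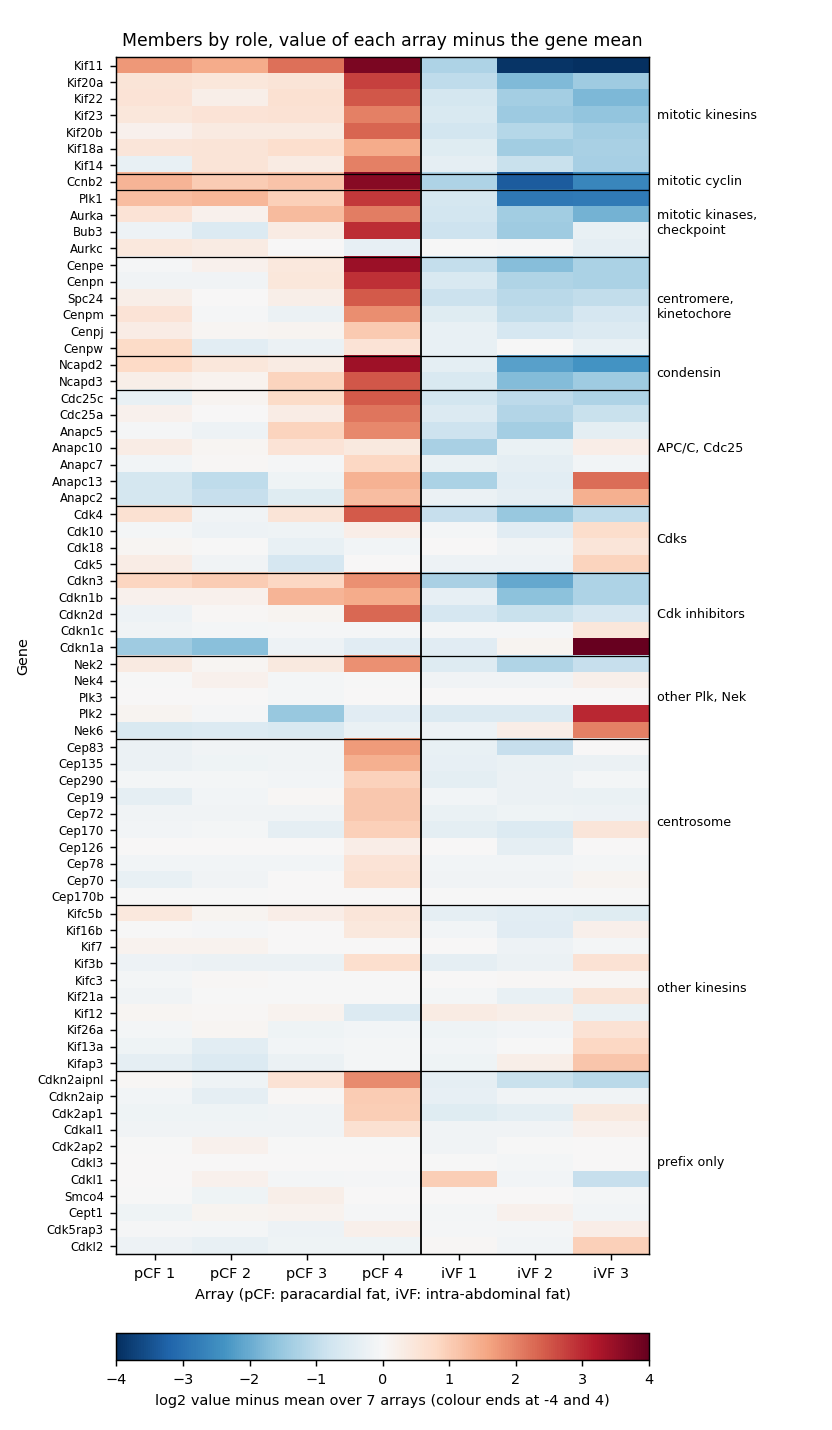
Log2 values of the 72 genes on each array, shown as the deviation from the gene's mean, with genes grouped by role and pCF arrays left of iVF arrays. The kinesins, cyclin, kinases, kinetochore genes and condensins of mitosis are highest on pCF array 4 for 18 of 20 genes. Over all genes tested, that array is the highest for 2795 of 9294.

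The mitotic kinesins are motors that move along spindle microtubules. All 7 had every pCF array above every iVF array, against 18.0% of all genes, and their median difference was 2.11. Of the 7, 3 passed the threshold, against 6.25% of all genes called higher. Kif11, the Eg5 motor that pushes spindle poles apart, was at 11.93, 11.68, 12.41 and 13.97 in pCF, against 8.96, 6.28 and 6.17 in iVF. The depots did not overlap, iVF array 1 lay above the other iVF arrays, and the difference was 5.36 ± 0.86 (SE; 95% interval 3.31 to 7.41, adjusted p = 0.0178). Compared over only the 5 arrays it was 4.39, and between the pair with the higher ceiling 7.80. Kif23, a motor of the central spindle needed for cytokinesis, was at 7.80, 7.90, 7.94 and 9.37 in pCF, against 6.74, 5.91 and 5.77 in iVF. Its first 3 pCF arrays lay close together and array 4 stood above them, with a difference of 2.11 ± 0.47 and an adjusted p of 0.0394. Kif18a, which limits the length of kinetochore microtubules, was at 6.75, 6.77, 6.94 and 7.76 in pCF, against 5.78, 4.87 and 4.97 in iVF. The groups again did not overlap, and the difference was 1.85 ± 0.35 (adjusted p = 0.0263). With each array left out in turn, Kif11 stayed past the threshold in 5 of 7 fits, and Kif23 and Kif18a in 2 each. The promoter window of Kif18a held neither motif, while those of the other 7 genes past the threshold held both.

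Kif20a, a kinesin of cytokinesis, and Kif22, which moves chromosomes, fell just outside the threshold. Kif20a was at 7.90, 7.85, 7.90 and 10.15 in pCF, against 6.38, 5.64 and 5.97 in iVF, with a difference of 2.45 ± 0.62 and an adjusted p of 0.0574. Kif22 was at 7.45, 7.16, 7.51 and 9.38 in pCF, against 6.21, 5.57 and 5.10 in iVF, with a difference of 2.25 ± 0.59 and an adjusted p of 0.0636. In both genes pCF array 4 was far above the other pCF arrays while the depots did not overlap. Kif20b, another cytokinesis kinesin, differed by 1.89 (adjusted p = 0.0901) and Kif14 missed the threshold too (adjusted p = 0.162).

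**Figure D2:**
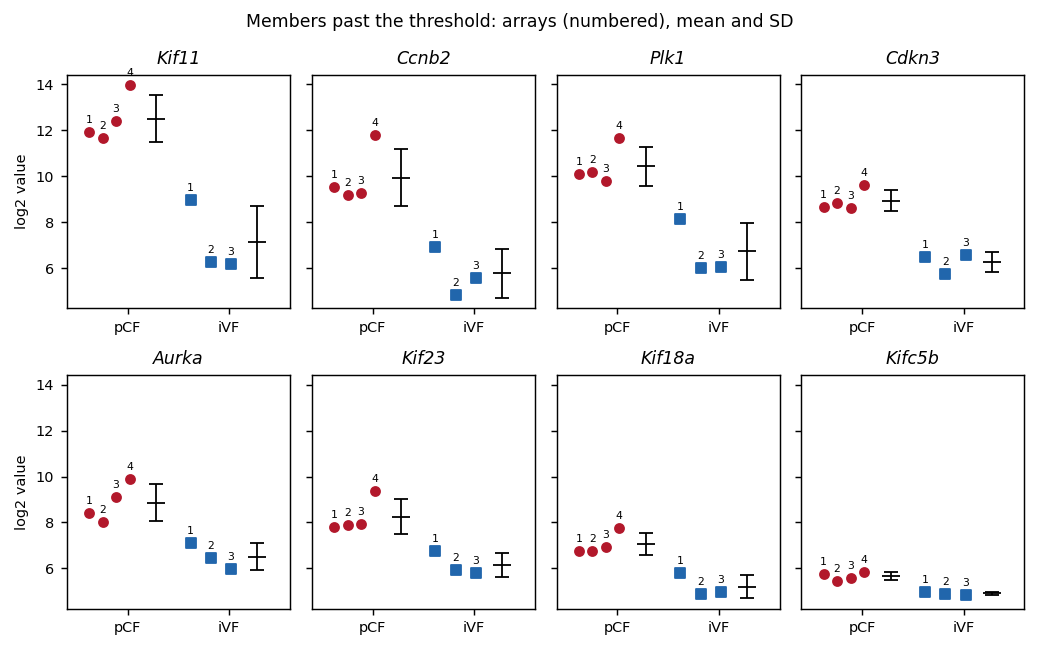
Log2 values of the 8 genes past the threshold on each numbered array, pCF left of iVF, with the mean and SD beside the points. All pCF points lie above all iVF points in each panel, which selection by the depot test on these same values favours. The highest iVF array is array 1 in 7 of the 8, against 3404 of the 9294 genes tested.

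Ccnb2 is a B-type cyclin that drives entry into mitosis, and it was the only mitotic cyclin among the 9294 genes used. It was at 9.51, 9.17, 9.29 and 11.79 in pCF, against 6.93, 4.83 and 5.54 in iVF. The depots were separate on every array, and the difference was 4.17 ± 0.79 (SE; 95% interval 2.28 to 6.06, adjusted p = 0.0255). Over only the 5 arrays it was 3.44, and with each array left out in turn Ccnb2 stayed past the threshold in 2 of 7 fits. All 4 mitotic kinases and checkpoint genes had a positive difference, and 2 of the 4 passed the threshold, against 6.25% of all genes called higher. Plk1, the Polo-like kinase of spindle assembly, was at 10.09, 10.16, 9.78 and 11.69 in pCF, against 8.15, 5.99 and 6.03 in iVF. The groups did not overlap, and the difference was 3.71 ± 0.69 (adjusted p = 0.0246), or 2.94 over only the 5 arrays, and Plk1 likewise stayed past it in 2 of 7. Aurka, a kinase of the spindle poles, was at 8.42, 8.03, 9.12 and 9.90 in pCF, against 7.12, 6.46 and 5.95 in iVF. Its difference was 2.36 ± 0.51 (adjusted p = 0.0366), and it did not pass in any of the 7 fits that left out 1 array. Over only the 5 arrays it was 1.74 (adjusted p = 0.078), and between the pair 3.94. The checkpoint gene Bub3 differed by 1.47 (adjusted p = 0.366) and Aurkc, known mainly from germ cells, by 0.25 (adjusted p = 0.587), with overlapping depots in both.

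Of the 6 genes grouped by symbol as centromere and kinetochore genes, none passed. In 5 of the 6 every pCF array lay above every iVF array, and the median difference of the 6 was 1.47. Cenpj, at 0.89 (adjusted p = 0.116), is in this group and in the 20 mitotic genes through its prefix alone. A prefix does not show that a protein acts at the kinetochore. Cenpe, the kinesin that links chromosomes to microtubules, was at 6.88, 7.08, 7.32 and 10.32 in pCF, against 5.95, 5.21 and 5.65 in iVF, with a difference of 2.30 ± 0.86 (adjusted p = 0.159). Its separation was small on the first 3 pCF arrays and wide on the fourth. Over only the 5 arrays the Cenpe difference was 1.52, and between the pair 4.67. Without pCF array 4 it was 1.49 and passed (adjusted p = 0.036). Both condensin subunits, which compact mitotic chromosomes, were separate as well. Ncapd2 was at 9.38, 9.03, 8.92 and 11.96 in pCF, against 8.18, 6.39 and 6.19 in iVF, with a difference of 2.90 ± 0.88 (adjusted p = 0.0962). Over only the 5 arrays it was 1.82, and between the pair 5.77. Ncapd3 differed by 2.20 (adjusted p = 0.0802). Taken with the kinesins, cyclin and kinases, a grouping made after the values were seen, 20 mitotic genes had 6 past the threshold, 17 without overlap and all 20 with a positive difference. Over all genes 6.25% were called higher, 18.0% were separate in that direction and 5628 of 9294 had a positive difference. For these genes the median was 1.49 when only the 5 arrays were compared and 3.81 for the pair with the higher ceiling. The other 52 genes had 2 past the threshold and a median of 0.08.

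**Figure D3:**
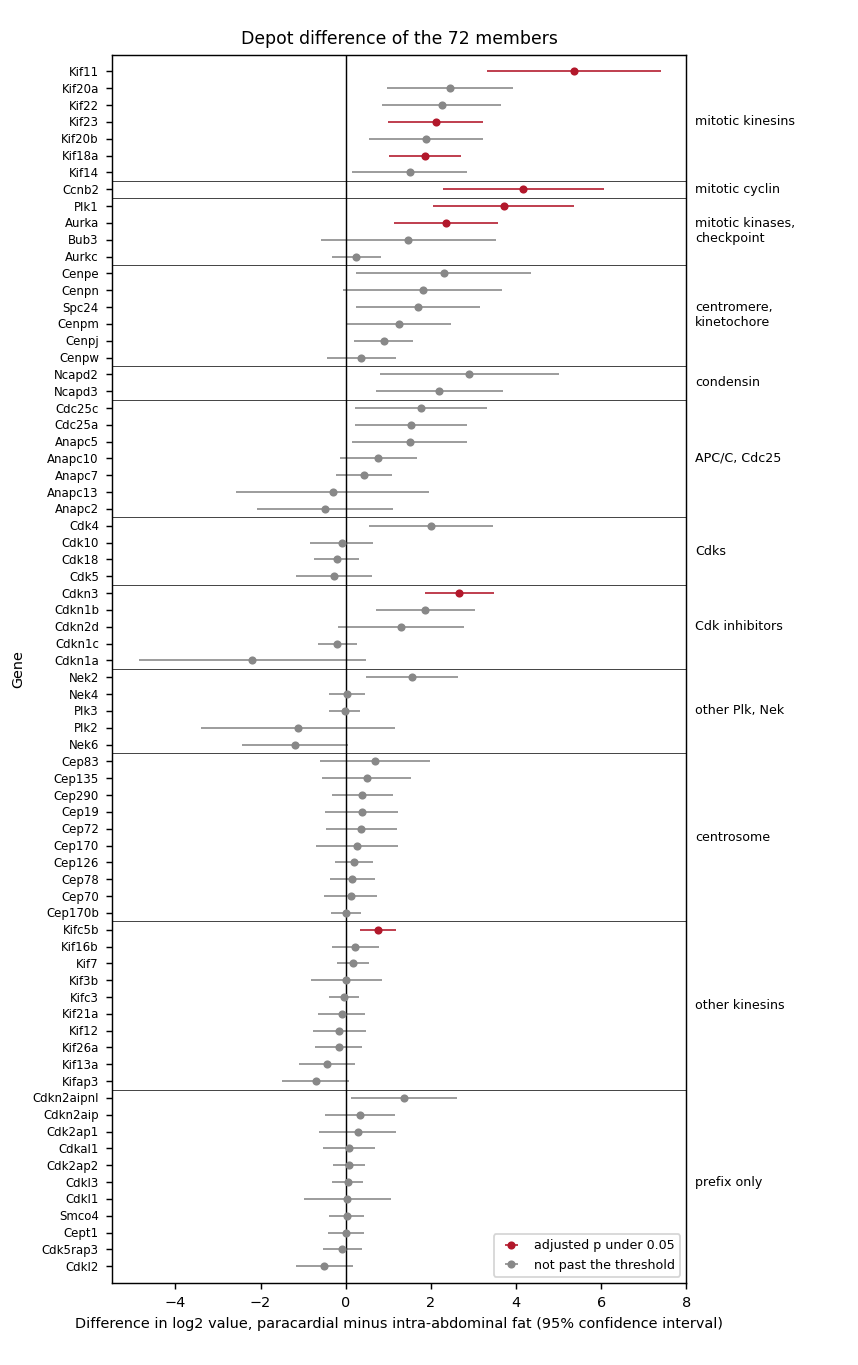
Difference in log2 value, pCF minus iVF, with its 95% interval for each of the 72 genes, grouped by role, with genes past the threshold marked. The mitotic kinesins all lie above 0, up to 5.36 for Kif11, while the other kinesins lie between -0.70 and 0.75.

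Of the anaphase-promoting complex and Cdc25 phosphatases, which remove the brake on cyclin-dependent kinases, none of 7 passed, against 9.16% of all genes in both directions. In 3 of the 7 every pCF array lay above every iVF array, against 18.0% of all genes. Cdc25c was at 5.15, 5.54, 6.22 and 7.90 in pCF, against 4.70, 4.39 and 4.20 in iVF, with a difference of 1.77 ± 0.65 (adjusted p = 0.150). Its pCF arrays spread more widely than its iVF arrays. None of the 4 cyclin-dependent kinases passed. Cdk4, which acts early in the cycle with D-type cyclins, was at 9.95, 9.17, 9.83 and 11.79 in pCF, against 8.41, 7.82 and 8.30 in iVF, with a difference of 2.01 ± 0.61 (adjusted p = 0.0957). The depots were separate for Cdk4 and overlapped for Cdk5, Cdk10 and Cdk18, which are not core cycle kinases.

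The genes named as kinase inhibitors did not move together. Cdkn3, a phosphatase that acts on cyclin-dependent kinases and is itself high in dividing cells, was at 8.66, 8.82, 8.63 and 9.63 in pCF, against 6.49, 5.75 and 6.56 in iVF. The arrays of each depot lay close together, and the difference was 2.66 ± 0.34 (SE; 95% interval 1.85 to 3.47, adjusted p = 0.0106), with 2.58 over only the 5 arrays and 3.06 between the pair with the higher ceiling. It was the only one of the 72 genes to pass in all 7 fits that left out 1 array. Cdkn1b, the inhibitor p27, was at 8.17, 8.17, 9.35 and 9.46 in pCF, against 7.65, 6.35 and 6.74 in iVF, and just missed the threshold with 1.87 ± 0.48 (adjusted p = 0.0616). Cdkn1a, the p53 target p21, was at 7.01, 6.77, 8.25 and 7.98 in pCF, against 7.98, 8.55 and 12.56 in iVF. Its high iVF value rested on array 3, the depots overlapped, and the difference was -2.19 ± 1.12 (adjusted p = 0.298). It was -0.92 over only the 5 arrays, -4.58 between the pair and -0.76 without iVF array 3. Cdkn1c, the inhibitor p57, differed by -0.20 (adjusted p = 0.584).

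Among the other Polo-like and NIMA-related kinases none of 5 passed, against 9.16% of all genes in both directions. Nek2, a kinase of centrosome separation, was at 6.46, 6.16, 6.49 and 7.90 in pCF, against 5.56, 4.87 and 5.15 in iVF, and differed by 1.56 ± 0.45 (adjusted p = 0.0832). Plk2, a stress-responsive kinase, was at 6.76, 6.61, 5.14 and 6.19 in pCF, against 6.11, 6.11 and 9.68 in iVF, with a difference of -1.13 ± 0.95 (adjusted p = 0.538), which was 0.0661 without iVF array 3. As for Cdkn1a, iVF array 3 was the high one. It was also the highest array for the medians of the macrophage and adipocyte markers, and for 1901 of the 9294 genes tested. The part of either cell type in the Cdkn1a and Plk2 values was not tested. Plk3 differed by -0.02 (adjusted p = 0.942).

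None of the 10 centrosome genes passed, against 9.16% of all genes in both directions, and their median difference was 0.32. The highest of all arrays was pCF array 4 in 10 of 10, against 2795 of the 9294 genes tested. Cep83, needed to anchor centrioles, had the widest difference of the centrosome genes, 0.69 ± 0.54 (adjusted p = 0.503). That difference was 0.22 without pCF array 4 and 0.42 without iVF array 2. Of 10 other kinesins, which mostly carry cargo or work in cilia, 1 passed, against 6.25% of all genes called higher. Their median difference was -0.07. That gene was Kifc5b, at 5.75, 5.44, 5.59 and 5.83 in pCF, against 4.97, 4.90 and 4.84 in iVF, with a difference of 0.75 ± 0.18 (adjusted p = 0.0473). It is nearly identical to the mitotic kinesin gene Kifc1, so its signal is uncertain, and it passed in none of the 7 fits that left out 1 array. Of the 11 genes caught by prefix only, none passed, with Cdkn2aipnl the widest at 1.37 ± 0.52 (adjusted p = 0.164). With so few genes, the counts of these groups cannot be told apart from the shares over all genes.

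**Figure D4:**
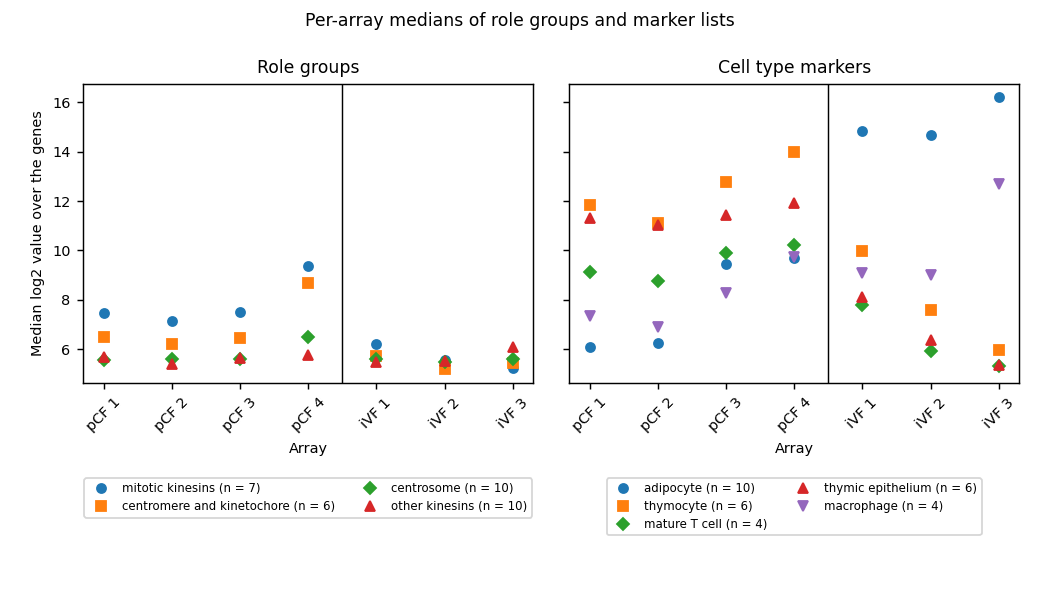
Median log2 value on each array, pCF left of iVF, for 4 role groups and for 5 lists of cell type markers. The mitotic kinesins and the thymocyte, mature T cell and thymic epithelium markers are all highest on pCF array 4. All are higher on iVF array 1 than on iVF arrays 2 and 3.

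The median of the mitotic kinesins ran in a similar order over the arrays to those of the thymocyte, mature T cell and thymic epithelium markers. The median of the mitotic kinesins was 7.45, 7.16, 7.51 and 9.37 in pCF, against 6.21, 5.57 and 5.25 in iVF. Both this median and that of the thymocyte markers were highest on pCF array 4, and within iVF both were highest on array 1. The same held for the medians of the mature T cell and thymic epithelium markers. For the 20 mitotic genes together the iVF medians were 6.30, 5.51 and 5.60, lowest on array 2. The thymocyte median was lowest on iVF array 3. The highest of all arrays was pCF array 4 for 2795 of the 9294 genes tested and for 3 of the 6 thymic epithelium markers. Brown adipocyte markers stood apart on pCF array 4 as well, where 3 of 3 measured out of 6 were at their highest and none passed the threshold. Ucp1, the uncoupling protein of brown fat, was at 4.61, 4.99, 6.14 and 13.92 in pCF, against 4.84, 4.57 and 4.36 in iVF. The part of thymic, mature T or brown fat cells in the mitotic values was not tested.

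Other cell division genes outside the name rule showed the same direction. Of 55 listed, 16 were measured, all 16 had a positive difference, 13 were separate between the depots, and 2 passed. Over all genes 5628 of 9294 were positive, 18.0% were separate and 6.25% were called higher. Depdc1a, a mitotic gene, was at 8.77, 8.34, 8.52 and 9.36 in pCF, against 6.06, 5.04 and 5.16 in iVF. The depots were far apart, with a difference of 3.33 ± 0.36 (adjusted p = 0.0082), and it passed in all 7 fits that left out 1 array. Cdca8, the borealin subunit of the chromosomal passenger complex, differed by 1.23 ± 0.27 (adjusted p = 0.0392). Ube2c and Ube2s, the ubiquitin-conjugating enzymes of the anaphase-promoting complex, differed by 3.21 (adjusted p = 0.0641) and 2.25 (adjusted p = 0.101) without passing.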

How the data were processed

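RNA from 4 paracardial and 3 intra-abdominal samples was hybridised to Affymetrix arrays. The authors deposited 1 log2 value per probe and array, and per the submitters' processing notes RMA and Affymetrix Expression Console were used. For neither tool is a version, a background setting or a genome build given in the sources. A log2 scale was inferred because of the range of the values and the use of RMA. Signal over background is unknown, and precision is set by how few arrays there are.

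Of 11949 probes, 9352 had 1 gene symbol in the platform annotation, 522 several and 2075 none. Symbols were updated through Entrez identifiers (RefSeq, GRCm38.p6), and the probe with the highest mean was kept for each of 52 genes with several, leaving 9294 genes. Differences came from a two-sided limma test (version 3.58.1, R 4.3.3, eBayes after lmFit, no covariate), with Benjamini-Hochberg adjustment across the 9294 genes, a threshold of 0.05 and intervals at 95%. The fit was tested on simulated data. Genes were named by role group, as those past the threshold with the widest differences or else the widest difference, with a fixed set of well-known genes, the 3 just inside and the 3 just outside the threshold, and the widest called genes of a list of other division genes. Further names were picked once their values had been seen. The genes, lists and markers were chosen with earlier results of these data known. The 19 alternatives cover filters, normalization, the spread estimate, array weights, blocks, probe choice and arrays left out.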

Additional observations from a re-analysis of the deposited data

Results flagged for a closer look

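A single paracardial array stood apart from the other 3 in several results, with a gap to its nearest neighbour, as a share of the range of the 4 arrays, above Dixon's 95% critical value. Chance gives such a gap in about 1 of 20 groups, and 24 genes and 19 lists were tested. Array 4 was the high one for Ccnb2 (0.870 of the range), Cenpe (0.872), Cep83 (0.960), Kif20a (0.979), Kif22 (0.844), Kif23 (0.917) and Ncapd2 (0.847). Array 3 was the low one for Plk3 (0.909), although its 4 values all lay between 4.99 and 5.10. The medians showed it too, with 0.962 for all 72 genes, 0.884 for the centromere and kinetochore genes, 0.941 for the centrosome genes, 0.884 for the condensins and 0.844 for the mitotic kinesins. The median of the mesothelium markers had a gap of 0.892, with array 3 high. Over the 72 genes 37.5% had such an array, against 14.3% of all genes.

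The name rule left out 6 probes, and for 4 of them every pCF array lay above every iVF array. The differences of those 4, pCF minus iVF, were 1.14 for Anapc15-ps, 2.25 for Ccnd3-ps, 0.90 for the probe of Cntrl and Cep110, and 0.77 for Plk-ps1. The depots overlapped for the probe of Ccnd1 and Mir3962, at -0.15, and for that of Cdk2ap1 and Gm12184, at 0.43. Pseudogene probes can pick up transcripts of the parent gene, and these values were not tested.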

How the results depend on the processing

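Of the 19 alternatives, those that moved a count by over 1.5 times were these. Genes of the 72 higher in pCF numbered 8, against 13 after quantile normalization, 29 with array weights, 14 with the array set as a block, 0 with the replicate block and 0 with pCF arrays 1 and 2 left out, and between 1 and 13 when each array was left out in turn (1 without pCF array 1 or iVF array 2, 2 without pCF array 2, pCF array 3 or iVF array 3, and 13 without pCF array 4). Genes lower numbered 0, against 3 with array weights (Cdkn1a, Kifap3 and Nek6), whose iteration did not converge. Over all genes 851 passed, against 3614 with array weights, 1654 with the array set as a block, 0 with the replicate block, 1 without pCF arrays 1 and 2, and between 185 and 833 with each array left out. The split was 581 higher and 270 lower, against 432 and 416 after quantile normalization and 512 and 530 after cyclic loess. Within the 5 arrays of the lower ceiling 6 of the 72 passed, of which Cdkn3 and Kif23 were among the 8. The median difference was 0.35, against 0.12 without pCF array 4, 0.12 with the replicate block, 0.21 within the 5 arrays, 0.21 after quantile normalization, 0.22 after median centring, 0.60 without pCF arrays 1 and 2, and 1.49 with the dimmest 50% of genes dropped, which leaves 38 of the 72. Plk2 turned to 0.31 with array weights and 0.0612 within the 5 arrays, and ranged between -1.72 and 0.0661 with each array left out, and Plk3 between -0.0359 and 0.00097. For the named genes 339 results kept direction and side, 34 passed newly, 72 no longer passed and 4 turned. Where the cause of a change is not named, the cause was not tested. The labels do not say whether same-numbered samples are paired. The correlations of same-numbered deviations from the depot means were 0.048, 0.047 and -0.500. With so few arrays they cannot decide whether the samples are paired. The replicate block leaves 2 residual degrees of freedom. Depth does not apply to arrays.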

Other observations

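Some of the 72 genes had the same value on several arrays. At least 3 array values that were exactly equal as deposited were found for 13 of the 72 (18.1%), against 7.13% of all genes. They include Cdkal1, Cep170b, Cep78 and Plk3.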
